A study of Homo sapiens with 16 samples.

Results

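The 6 genes described here are SPP1, P2RY6, RGS2, RAB11FIP1, CABLES1 and RAB36. Their change after 24 h of bortezomib differed between the lines studied, LP-1-cIAP2-eGFP and its control LP-1-eGFP. They are 6 of the 20503 genes that could be matched to a probe on the array by RefSeq accession. Their 7 probes, 2 of them for RAB11FIP1, are among 50599 gene probes. Every one of these probes lay well above background, by the test of the scanner software, on all 16 arrays, which was a condition of the choice. The genes were chosen by their 24 h responses on these same arrays, so that the 24 h changes below are a description without a test. The changes at 6 h took no part in the choice and were tested. The spread between the 2 arrays of each 6 h condition did enter the standard errors behind the choice, which favours genes with a small spread, so that the p-values at 6 h may be too small.

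LP-1 was derived from human multiple myeloma and carries a lesion in TRAF3. Both lines carried a lentiviral vector and had been sorted for eGFP, the vector of LP-1-cIAP2-eGFP encoding cIAP2 and eGFP and that of LP-1-eGFP encoding eGFP alone. Each line was grown without drug or with bortezomib at 10 nM, and RNA was taken at 6 h and 24 h, with 2 biological replicates for each of the 8 conditions. Each line was 1 transduced population, so that an effect of cIAP2 and any other difference between the populations cannot be told apart. Signals were quantile normalized and are given on the log2 scale throughout.

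Bortezomib blocks the chymotrypsin-like site of the proteasome, and plasma cells, which secrete large amounts of protein, are sensitive to it. cIAP2, the product of BIRC3, is a ubiquitin ligase that binds caspases and TRAF proteins and acts in NF-κB signaling. SPP1 encodes osteopontin, a secreted phosphoprotein of bone matrix that binds integrins and CD44. P2RY6 encodes a receptor for extracellular UDP that signals through Gq, and RGS2 encodes a protein that speeds GTP hydrolysis by Gq and so ends such signals. RAB11FIP1 encodes an effector of RAB11 in the recycling of endosomes, RAB36 encodes a small GTPase of the Golgi and late endosomes, and CABLES1 encodes an adaptor that links cyclin-dependent kinases to the kinases that act on them.

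RefSeq sequences upstream of the start site were read for SPP1, RGS2 and CABLES1 only. Those of SPP1 and RGS2 are shown because among the 3 these differed most between the untreated lines, SPP1 upward and RGS2 downward. Both run 5′ to 3′ on the plus strand of GRCh38.p14 and end at the base before the start site, SPP1 at chr4:87975464-87975713 and RGS2 at chr1:192808789-192809038. Capitals mark matches to 8 short motifs searched on both strands, which were TGANTCA (AP-1), TGACGTCA (cAMP response element), GGGACTTTC (NF-κB), TGTGGTT (RUNX), CCAAT (nuclear factor Y), TGATGCAA (CHOP-ATF), GGGCGG (GC box) and, for the TATA box, TATAAA, and no 2 of the matches overlap.
SPP1: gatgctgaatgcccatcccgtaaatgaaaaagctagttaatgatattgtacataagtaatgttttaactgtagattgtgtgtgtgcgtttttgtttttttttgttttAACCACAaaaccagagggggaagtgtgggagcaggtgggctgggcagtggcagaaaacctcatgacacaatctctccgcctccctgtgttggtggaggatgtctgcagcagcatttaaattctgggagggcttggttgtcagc
RGS2: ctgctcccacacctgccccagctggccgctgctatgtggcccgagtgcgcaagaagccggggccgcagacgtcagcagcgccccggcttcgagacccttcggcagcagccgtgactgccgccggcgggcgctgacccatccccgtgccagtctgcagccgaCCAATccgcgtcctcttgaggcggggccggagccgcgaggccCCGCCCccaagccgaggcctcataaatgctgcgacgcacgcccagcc

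In the SPP1 sequence the single match was to the RUNX motif on the minus strand, 143 to 137 bases before the start, which 3.65% of the 35116 promoters in the table hold within the same 250 bases. The RGS2 sequence held a CCAAT motif 89 to 85 bases before the start and a GC box on the minus strand at 47 to 42 bases, and 32.0% and 42.6% of all promoters hold these. The RGS2 sequence was 72.8% G or C and the SPP1 sequence 44.8%. CABLES1 has 3 start sites in the table, which all held the GC box, and 2 of them a TATA box, which 3763 of all promoters hold. The TATA box lay 28 to 23 bases before start site 1 on the minus strand and 30 to 25 bases before start site 2 on the plus strand. The AP-1 (6.57% of promoters), cAMP response element (1.65%), NF-κB (0.325%) and CHOP-ATF (0.772%) letters were not in the windows of these 3 genes. A match of letters is a description of the sequence only.

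A single array was much dimmer than the rest. On replicate 1 of treated LP-1-cIAP2-eGFP cells at 24 h the log2 median signal was 3.18 and 35.5% of spots lay well above background. The other 15 arrays had log2 medians of 5.73 to 6.64 and 49.0% to 71.1% of spots above background. The 2 arrays of that condition also differed more from each other over all probes (SD of the difference 1.45) than those of the other 7 conditions (0.487 to 0.751). The number of arrays limits the precision. The cells carried the markers of plasma cells, of which 8 of 9 were well above background on all 16 arrays and the ninth, PRDM1, on 15. Since RNA came from whole cultures, fewer cells that make a transcript and less of it in each cell cannot be told apart.

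SPP1 was much lower in control cells than in LP-1-cIAP2-eGFP cells. In untreated control cells its signals were 5.89 and 6.05 at 6 h and 5.45 and 6.03 at 24 h. In untreated LP-1-cIAP2-eGFP cells they were 11.31 and 11.39 at 6 h and 11.08 and 11.02 at 24 h. The untreated lines thus did not overlap, and at 6 h LP-1-cIAP2-eGFP was higher by 5.38 ± 0.09 (SE), a 41.7-fold difference with an adjusted p of 1.64e-04. With normexp background correction at an offset of 50 this difference was 4.25, and that at 24 h was 4.04.

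With bortezomib SPP1 was higher at 24 h in control cells. At 6 h the treated control arrays gave 6.05 and 6.00, within the untreated values, and the treated LP-1-cIAP2-eGFP arrays 11.03 and 11.004, a little under the untreated ones. At 24 h the treated control arrays reached 8.57 and 8.50, well over the untreated arrays. The treated LP-1-cIAP2-eGFP arrays read 11.09 and 11.11, just above their untreated arrays. The 24 h response was 2.79 ± 0.18 (SE) in control, 6.92-fold, and 0.05 ± 0.18 in LP-1-cIAP2-eGFP. Even so, SPP1 in treated control cells at 24 h remained 5.93-fold under treated LP-1-cIAP2-eGFP cells, against 39.7-fold between the untreated lines at that time. With normexp the 24 h response in control cells was 1.77.

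P2RY6, the UDP receptor, was arranged in the same way. Untreated control cells gave 7.39 and 7.15 at 6 h and 6.99 and 7.14 at 24 h, and untreated LP-1-cIAP2-eGFP cells gave 11.20 and 11.19, then 11.16 and 10.78. At 6 h the gap between the untreated lines was 3.93 ± 0.11 (SE), 15.2-fold, with an adjusted p of 3.32e-04, and with normexp it was 3.31. In control cells P2RY6 stood at 8.31 and 8.21 after 6 h of bortezomib and at 9.56 and 9.59 after 24 h, above the untreated arrays at both times. In LP-1-cIAP2-eGFP cells the treated arrays read 11.46 and 11.38 at 6 h and 10.38 and 10.91 at 24 h, the latter overlapping the untreated values. The lower of these 24 h values is that of the dim array. The 24 h response was 2.51 ± 0.20 (SE) in control and -0.32 ± 0.20 in LP-1-cIAP2-eGFP, or -0.06 in the latter without the dim array, and the gap between the lines narrowed from 15.0-fold without the drug (3.91 on the log2 scale, and 3.21 with normexp) to 2.11-fold with it.

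RGS2, the Gq regulator, started from the opposite side. It was bright in untreated control cells, 13.99 and 13.67 at 6 h and 13.74 and 13.53 at 24 h, and lower in untreated LP-1-cIAP2-eGFP cells, 11.55 and 11.09 at 6 h and 10.89 and 10.81 at 24 h. The untreated lines did not overlap, and at 6 h LP-1-cIAP2-eGFP lay 5.69-fold lower (-2.51 ± 0.22, adjusted p = 0.00442). After 6 h of bortezomib the control arrays read 14.52 and 14.27 and the LP-1-cIAP2-eGFP arrays 11.92 and 11.64, in both lines just above the untreated arrays of that time.

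At 24 h the lines met. The treated control arrays gave 14.62 and 14.60 for RGS2 and the treated LP-1-cIAP2-eGFP arrays 15.17 and 14.82, the highest of all conditions. The 24 h response was 0.98 ± 0.21 (SE) in control, 1.97-fold, and 4.14 ± 0.21 in LP-1-cIAP2-eGFP, 17.7-fold. A gap of 6.87-fold between the untreated lines became one of 1.31-fold in the other direction, or 0.38 on the log2 scale. The higher of the treated LP-1-cIAP2-eGFP values is that of the dim array, and without it this difference was 0.21.

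RAB11FIP1, the RAB11 effector, differed from the first 3 genes in that the untreated lines lay together. Control cells gave 8.53 and 8.61 at 6 h and 9.12 and 8.79 at 24 h, and LP-1-cIAP2-eGFP cells 8.68 and 8.62, then 9.09 and 8.82. The difference at 6 h was 0.08 with a 95% interval of -0.21 to 0.37 and an adjusted p of 0.710. After 6 h of bortezomib the arrays read 9.21 and 9.21 in control and 9.55 and 9.27 in LP-1-cIAP2-eGFP, above the untreated arrays of that time in both lines.

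At 24 h RAB11FIP1 reached 10.03 and 10.35 in control and 12.83 and 12.56 in LP-1-cIAP2-eGFP cells. These were responses of 1.24 ± 0.19 (SE), 2.35-fold, and 3.74 ± 0.19, 13.3-fold. The second probe of the gene, which was dimmer, moved in the same direction but with a smaller difference between the lines, from 7.14 and 7.24 to 9.26 and 9.41 in control and from 7.67 and 7.19 to 10.56 and 10.62 in LP-1-cIAP2-eGFP. Its responses were 2.15 ± 0.19 and 3.16 ± 0.19, a difference of 1.01 where the brighter probe gave 2.50. The size of the difference for this gene therefore depends on the probe.

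CABLES1, the adaptor of cyclin-dependent kinases, fell with the drug, and further in control cells. Untreated control cells gave 13.49 and 13.53 at 6 h and 13.91 and 13.87 at 24 h. Untreated LP-1-cIAP2-eGFP cells gave 13.003 and 12.88, then 12.97 and 12.98, below control on every array. With bortezomib the 6 h arrays read 12.78 and 12.57 in control and 12.25 and 12.18 in LP-1-cIAP2-eGFP. At 24 h the order of the lines turned, with 10.84 and 11.12 in control and 11.55 and 11.59 in LP-1-cIAP2-eGFP. The 24 h responses were -2.91 ± 0.14 (SE), 7.54-fold lower, and -1.40 ± 0.14, 2.65-fold lower.

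RAB36, the Golgi and late endosome GTPase, also fell, but further in LP-1-cIAP2-eGFP cells. Untreated control cells gave 11.54 and 11.80 at 6 h and 12.20 and 12.31 at 24 h, and untreated LP-1-cIAP2-eGFP cells 12.27 and 12.46, then 12.70 and 12.94. After 6 h of bortezomib the arrays read 10.92 and 11.16 in control and 11.25 and 11.55 in LP-1-cIAP2-eGFP. After 24 h they read 10.21 and 10.28 in control and 9.01 and 9.03 in LP-1-cIAP2-eGFP, the lowest of all conditions, so that the order of the lines was again turned. The 24 h responses were -2.01 ± 0.17 (SE), 4.03-fold lower, and -3.80 ± 0.17, 13.97-fold lower.

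**Figure D1:**
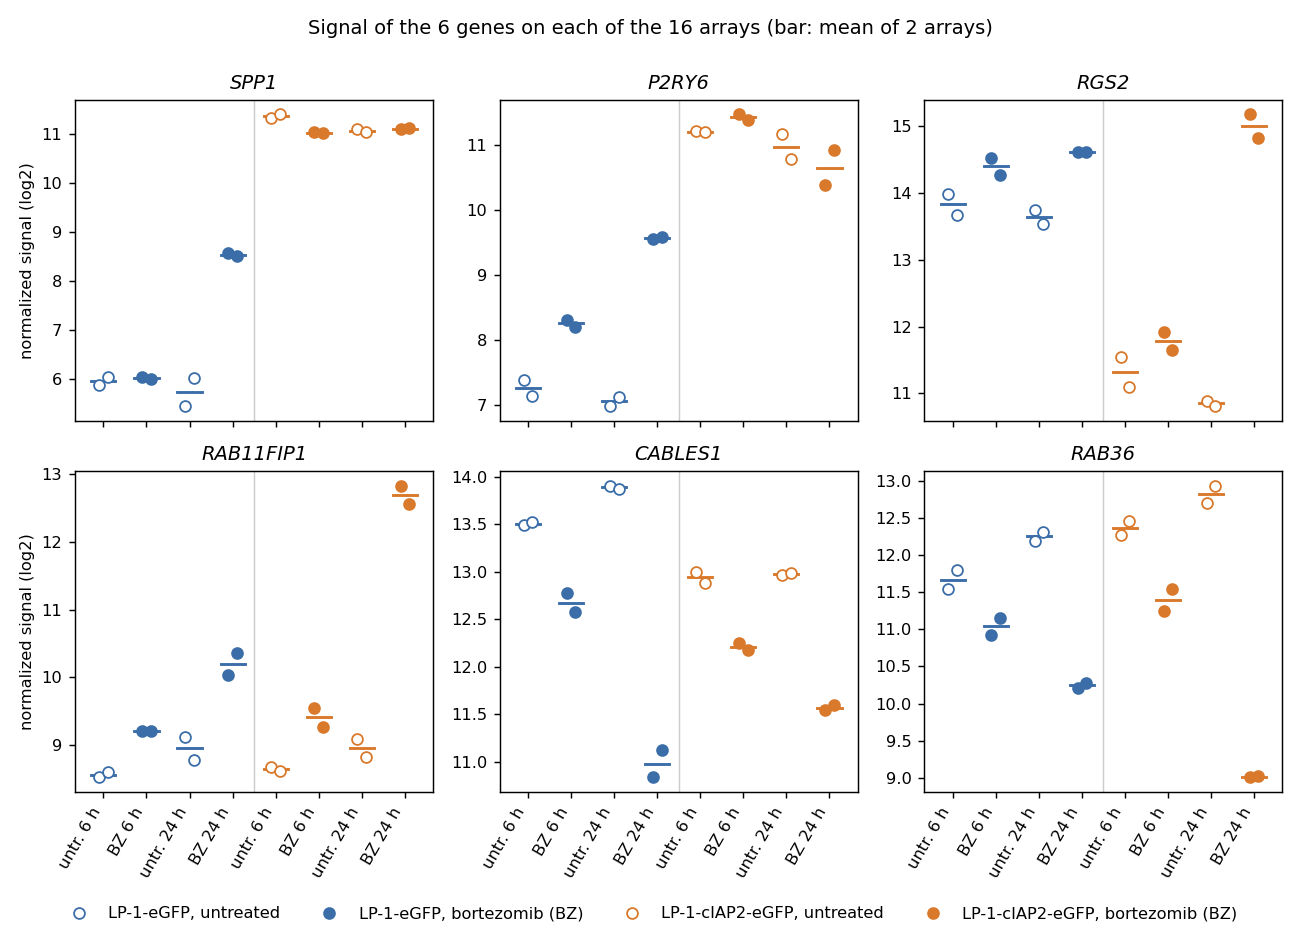
Quantile-normalized log2 signal of each gene (brightest probe) on each array, by line, treatment and time, with a bar at the mean of the 2 arrays; BZ, bortezomib. SPP1 and P2RY6 in control cells climb toward LP-1-cIAP2-eGFP at 24 h (SPP1 to 8.57 and 8.50), RGS2 in LP-1-cIAP2-eGFP climbs to control, and the order of the lines turns for CABLES1 and RAB36.

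The order of the 8 conditions differed from gene to gene. For SPP1 and P2RY6 all 4 conditions of LP-1-cIAP2-eGFP lay above all 4 of control. For RGS2 the 4 control conditions lay above 3 of LP-1-cIAP2-eGFP, and treated LP-1-cIAP2-eGFP cells at 24 h above all. For RAB11FIP1, CABLES1 and RAB36 the order followed the treatment, with treated cells of both lines at 24 h highest for RAB11FIP1 and lowest for CABLES1 and RAB36. Of the 7 pairs of neighbours in each order, the arrays overlapped in 3 for SPP1, in 2 for RAB36 and in 1 for each of the other 4 genes. The span from the lowest to the highest condition ran from 2.91 for CABLES1 to 5.61 for SPP1, while the median SD between the 2 arrays of a condition was between 0.04 and 0.19.

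At 6 h the response of each line was tested over all probes, with a threshold of 0.05 for the adjusted p. In control cells 2 of the 6 genes rose and 1 fell, where 5.48% of all genes tested rose and 6.18% fell. P2RY6 rose by 0.99 ± 0.11 (SE; adjusted p = 0.0116) and RAB11FIP1 by 0.64 ± 0.11 (0.0321, adjusted p), and CABLES1 fell by 0.83 ± 0.10 (adjusted p = 0.0148). RGS2 at 0.57 ± 0.22 (adjusted p = 0.198), RAB36 at -0.63 ± 0.17 (adjusted p = 0.0896) and SPP1 at 0.06 ± 0.09 (adjusted p = 0.794) did not pass.

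In LP-1-cIAP2-eGFP cells 1 gene rose and 2 fell at 6 h, where 3.72% of all genes tested rose and 3.79% fell. RAB11FIP1 rose by 0.76 ± 0.11 (SE; adjusted p = 0.0296), CABLES1 fell by 0.73 ± 0.10 (adjusted p = 0.0268) and RAB36 fell by 0.97 ± 0.17 (adjusted p = 0.0404). P2RY6 at 0.23 ± 0.11 (adjusted p = 0.288), RGS2 at 0.46 ± 0.22 (adjusted p = 0.277) and SPP1 at -0.34 ± 0.09 (adjusted p = 0.110) did not pass, though SPP1 did when the test was limited to probes detected on each of the 16 arrays (adjusted p = 0.0254, limma). Each of these 6 h changes was under 2-fold. They also lay near the threshold. Without any 1 of the 4 control arrays at 6 h, and with slide as a block, no gene passed in either line. Without 1 of the 4 LP-1-cIAP2-eGFP arrays 2 or 3 genes passed in control, and in LP-1-cIAP2-eGFP RAB11FIP1 alone without replicate 2 with bortezomib and none without each of the others. The changes that had passed kept their direction in these and all other alternatives, with sizes of 0.55 to 1.12, and the second RAB11FIP1 probe, at 0.33 in control and 0.61 in LP-1-cIAP2-eGFP, did not pass in either line.

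The difference between the lines in the 6 h response was then tested directly with limma, and none of the 6 genes passed. An unadjusted p under 0.05 was reached by 2 of them and by 5.23% of all genes tested. The adjusted threshold was passed by 0.00629% of all genes, which is 1 gene, DGAT2L6, named here after its value was seen and well above background on 2 of the 16 arrays. P2RY6 came nearest, at -0.76 with a 95% interval of -1.15 to -0.37 (unadjusted p = 0.00374, adjusted p = 0.587), and SPP1 was at -0.39 with an interval of -0.73 to -0.06 (unadjusted p = 0.0275, adjusted p = 0.790). For the other 4 genes the difference was 0.10 for CABLES1 (interval -0.27 to 0.48), 0.12 for RAB11FIP1 (-0.29 to 0.53), -0.10 for RGS2 (-0.87 to 0.67) and -0.34 for RAB36 (-0.94 to 0.26). At 24 h the differences were 1.51 for CABLES1, 2.50 for RAB11FIP1, 3.16 for RGS2, -1.79 for RAB36, -2.83 for P2RY6 and -2.74 for SPP1, or -1.95 for P2RY6 and -1.58 for SPP1 with normexp. These 24 h values are those that the choice of the genes used.

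**Figure D2:**
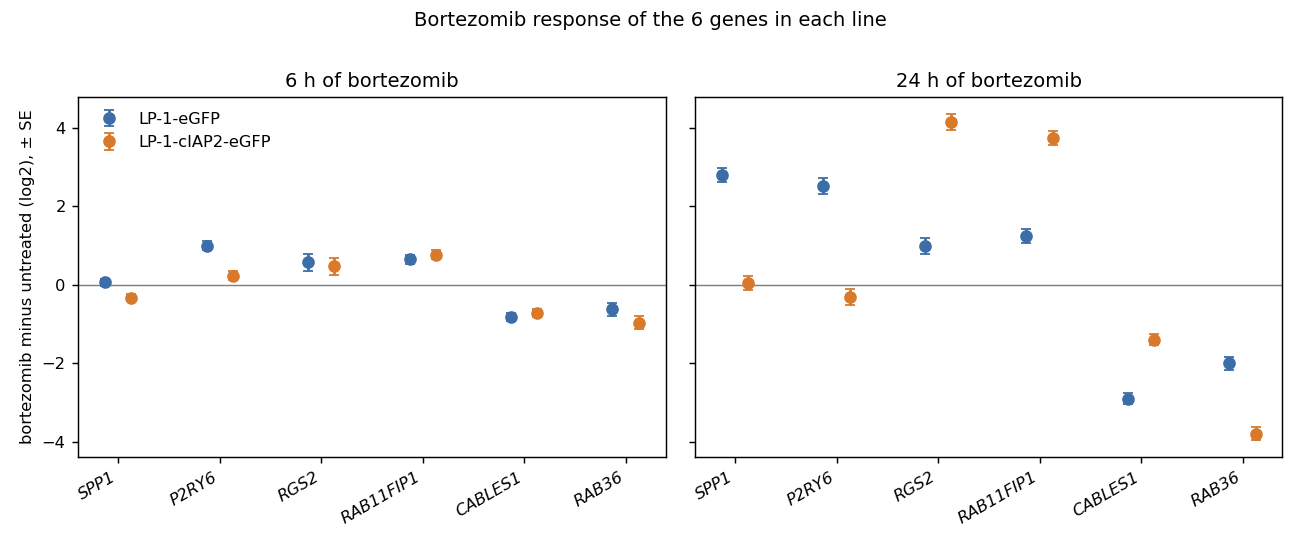
Bortezomib response (log2, treated minus untreated) of each gene at 6 h and 24 h in control and LP-1-cIAP2-eGFP cells, with the SE of the fit. At 6 h the lines lie close, P2RY6 being the farthest apart (0.99 and 0.23), and at 24 h they separate for every gene.

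The share of the 24 h change that was present at 6 h varied among the genes. In control cells it was 2.09% for SPP1, between 28.6% and 39.5% for CABLES1, RAB36 and P2RY6, 52.1% for RAB11FIP1 and 57.8% for RGS2. SPP1 and P2RY6 changed little over 24 h in LP-1-cIAP2-eGFP cells and are left out there. For the others it was 11.2% for RGS2, 20.4% for RAB11FIP1, 25.4% for RAB36 and 52.1% for CABLES1. These shares carry the error of the 6 h changes. The second RAB11FIP1 probe had 0.33 at 6 h and 2.15 at 24 h in control, a smaller share, and the 6 h change of RGS2 in LP-1-cIAP2-eGFP cells ran from 0.24 to 0.69 over the alternatives. In most of these cases the greater part of the change came after 6 h. The smallest of the shares given were those of SPP1 in control cells and RGS2 in LP-1-cIAP2-eGFP cells.

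Without drug, 4 of the 6 genes differed between the lines at 6 h. SPP1 and P2RY6 were higher in LP-1-cIAP2-eGFP and RGS2 and CABLES1 lower, where 4.5% of all genes tested were higher and 7.59% lower. The choice of the genes used the untreated 24 h arrays, where the gaps of SPP1, P2RY6 and RGS2 (5.31, 3.91 and -2.78) were near those at 6 h. Setting the 6 genes beside all genes is therefore not independent of the choice. SPP1, P2RY6 and RGS2 also passed 2-fold, as 1.5% of genes did upward and 3.46% downward. CABLES1 was lower by 0.57 ± 0.10 (SE; adjusted p = 0.0337), and it did not pass when any 1 array at 6 h was left out. Nor did CABLES1 pass without a signal filter, with slide as a block or with all 16 arrays in the fit. RAB36 at 0.69 ± 0.17 (adjusted p = 0.0665) and RAB11FIP1 did not pass. RAB36 did with the replicate number as a block (adjusted p = 0.0141) and among probes detected on each array (adjusted p = 0.0198). SPP1, P2RY6 and RGS2 passed under each of the 17 alternatives that were tested. Within slide 1 and slide 2 the untreated gaps at 6 h were 5.26 and 5.51 for SPP1, 4.06 and 3.80 for P2RY6, and -2.12 and -2.90 for RGS2. Among treated cells at 6 h SPP1 and P2RY6 were still higher and RGS2 lower in LP-1-cIAP2-eGFP, by 4.99 ± 0.09, 3.17 ± 0.11 and -2.61 ± 0.22, where 4.93% of genes were higher and 7.4% lower. With normexp the SPP1 difference among treated cells was 3.88. With slide as a block the RGS2 difference among treated cells no longer passed (limma, adjusted p = 0.0769).

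**Figure D3:**
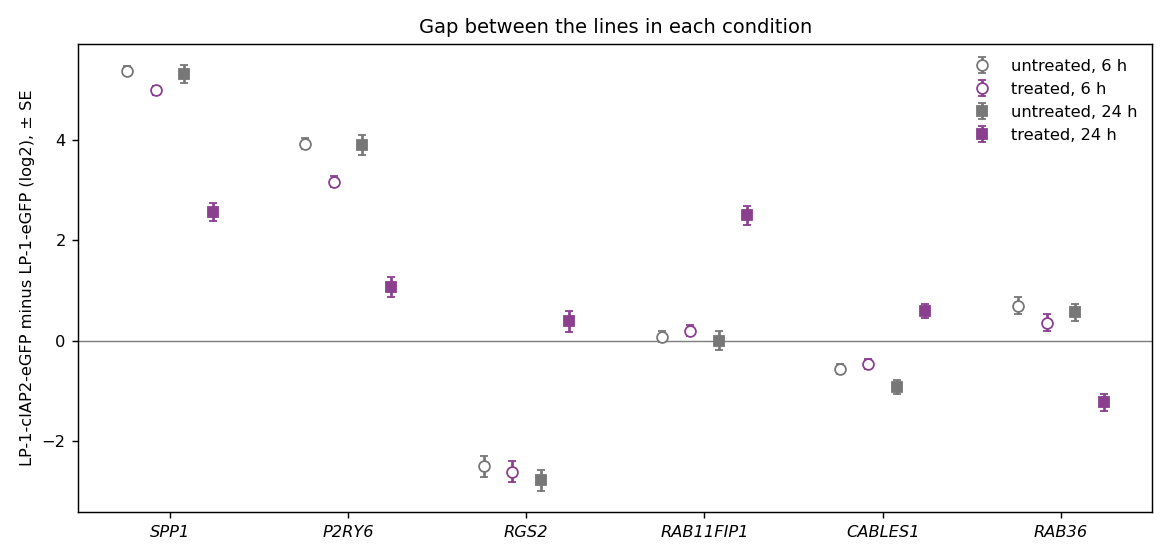
Difference between the lines (log2, LP-1-cIAP2-eGFP minus control, with the SE of the fit) in untreated and treated cells at 6 h and 24 h. SPP1 falls from 5.31 to 2.57 and P2RY6 from 3.91 to 1.07 with 24 h of drug, RGS2 goes from -2.78 to 0.38, and RAB11FIP1 leaves 0 only with 24 h of drug (2.50).

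SPP1 and P2RY6 are also known from macrophages, so the markers of such cells were read beside them. Of 4 monocyte or macrophage markers 3 had a probe. CSF1R was well above background on no array. Untreated means for CD14 were 6.15 in control and 5.92 in LP-1-cIAP2-eGFP, and those for ITGAM 6.64 and 4.77. ITGAM was well above background on 7 of 8 arrays in control and 3 of 8 in LP-1-cIAP2-eGFP, and CD14 on 8 and 5. The part of such cells in the values of SPP1 and P2RY6 was not tested. Of the T cell markers, CD3E passed the background test on 10 arrays, CD3D on 12 and CD2 on 15. In control and LP-1-cIAP2-eGFP these were 7 and 3 arrays for CD3E, 8 and 4 for CD3D and 8 and 7 for CD2. Of the fibroblast markers, COL1A1 passed on 10 arrays (7 in control and 3 in LP-1-cIAP2-eGFP) and COL1A2 and COL3A1 on none. Of the B cell markers given here, CD22 passed on 1 and MS4A1 and PAX5 on none. Among endothelial markers CDH5 passed on all 16, PECAM1 on 15 and VWF on 10 (7 in control and 3 in LP-1-cIAP2-eGFP).

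The slides carried unequal shares of the conditions. Slide 1 held both arrays of treated LP-1-cIAP2-eGFP cells at each time, and slide 2 both arrays of treated control cells at 6 h and of untreated control cells at 24 h. Among treated cells at 6 h, line and slide therefore cannot be told apart. Within slides, a response could be had for control cells from slide 2 and for LP-1-cIAP2-eGFP cells from slide 1. At 24 h these were 2.76 and 0.02 for SPP1, 2.52 and -0.51 for P2RY6, and 0.97 and 4.10 for RGS2. For RAB11FIP1 they were 1.40 and 3.60, for CABLES1 -2.77 and -1.39, and for RAB36 -1.98 and -3.69. Each lay on the same side and near the value over all arrays. Without the dim array the 24 h differences were -2.74, -2.56, 2.99, 2.36, 1.53 and -1.78 for SPP1, P2RY6, RGS2, RAB11FIP1, CABLES1 and RAB36.

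The difference in the 24 h response passed for 24 probes, 18 of them with a gene symbol, and for 0.104% of genes. Of these probes 10 were well above background on all 16 arrays, out of 12135 such probes with a symbol. Besides the 6 genes, which were chosen on this contrast, they belong to PTPN22, BAG4, LARP6 and NOG. For the latter the differences were 1.84 ± 0.21 (SE), 2.38 ± 0.29, 1.39 ± 0.19 and 2.00 ± 0.28. Ordered by the difference over its SE, RAB36 (7.50) and CABLES1 (7.67) were the last of the 6, below PTPN22 (8.80) and BAG4 (8.21), with LARP6 (7.23) and NOG (7.23) just inside, and ADA at -1.50 ± 0.22 (6.81) and SMIM14 at 1.77 ± 0.26 (6.68) just outside the threshold. This number of probes was itself not stable. It was 0 with array weights or with the 24 h arrays alone, 92 without the dim array, and 9338 when the dim array was the only one of its condition and was assumed to vary like the others.

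**Figure D4:**
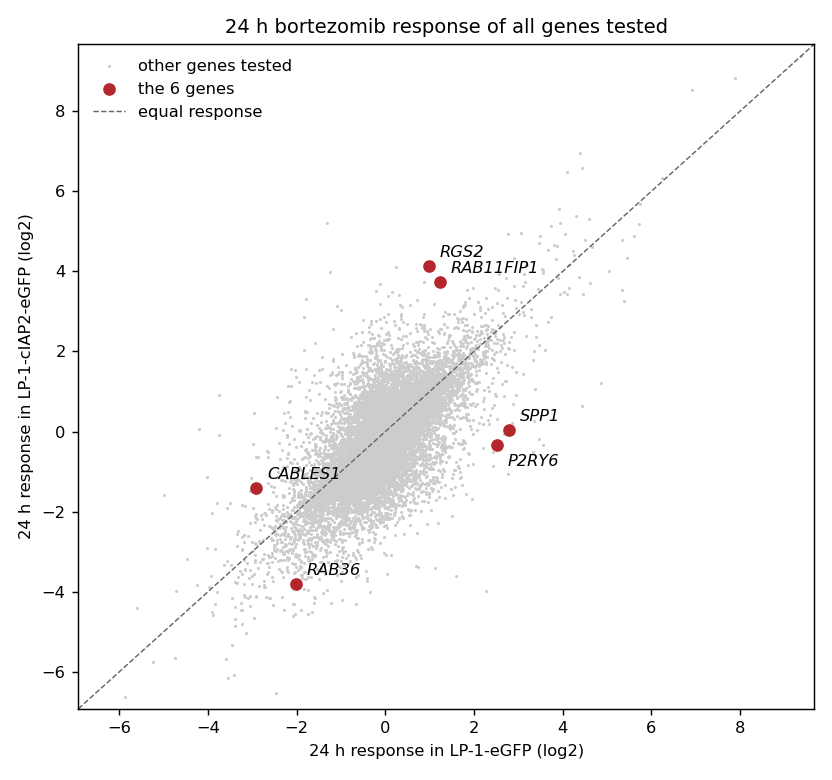
24 h bortezomib response (log2) of each gene tested in control (x axis) and LP-1-cIAP2-eGFP cells (y axis), with the 6 genes in red and a dashed line where both responses are equal. RGS2 and RAB11FIP1 lie above the line, SPP1 and P2RY6 to its right near 0 on the y axis, and CABLES1 and RAB36 on either side among the genes that fell.

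BIRC3 was read as the gene of cIAP2. By the study's methods its probe detects the endogenous transcript alone, so that it checks nothing about the transgene. Untreated control cells gave means of 13.62 ± 0.07 (SD, n = 2) at 6 h and 13.54 ± 0.01 at 24 h, and untreated LP-1-cIAP2-eGFP cells 12.03 ± 0.15 and 11.99 ± 0.11. With bortezomib control cells gave 13.84 ± 0.02 and 13.93 ± 0.14, and LP-1-cIAP2-eGFP cells 12.65 ± 0.20 and 13.63 ± 0.06. Endogenous BIRC3 was thus lower in untreated LP-1-cIAP2-eGFP cells and came near control after 24 h of drug, the arrangement seen for RGS2.

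The genes most like each of the 6 over the 16 arrays were sought among 9684 genes well above background on all of them. All 16 arrays share 2 lines and 2 times, so that the correlations describe this set and carry no test. SPP1 was nearest to P2RY6 (r = 0.97), and next to STAT4, a transcription factor of cytokine signaling (0.97), and SUSD6 (0.97). P2RY6 was near STAT4 (0.95) and GSTO1, a glutathione transferase (0.95). RGS2 was near RALYL (0.96), LARP6, which binds collagen mRNA (0.95), and BIRC3 (0.95).

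RAB11FIP1 was nearest to the histone gene H3C3 (r = 0.98) and ATXN1L (0.96), which without the dim array stood at 0.98 and 0.93. CABLES1 was nearest to XBP1, a transcription factor of the secretory plasma cell (0.98), SGCE (0.98) and TKFC (0.97). RAB36 was nearest to HOMER3, a scaffold protein (0.98), MCUB, a subunit of the mitochondrial calcium uniporter (0.98), and VAV1, a signaling protein of blood cells (0.97). Among the 6 genes themselves RAB36 ran against RAB11FIP1 (-0.89) and RGS2 (-0.78) and with CABLES1 (0.76), while SPP1 and RAB36 were nearly unrelated (-0.08).

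Genes of the systems around the 6 were taken from 6 lists, of which 81 of 99 genes were tested. None of them passed for the difference between the lines in the 24 h response, and none for that at 6 h. An unadjusted p under 0.05 was reached by 9 of the 81 at 24 h, where 8.71% of all genes did, and by 6 at 6 h, where 5.23% did. At 24 h 4 rose and 8 fell by more than 2-fold in control cells, or 4.94% and 9.88% of those tested, where 6.69% and 8.43% of all genes did. In LP-1-cIAP2-eGFP cells 9 rose and 12 fell, or 11.1% and 14.8%, where 7.66% and 13.9% of all genes did. The median change over the lists was 0.07 in control and -0.11 in LP-1-cIAP2-eGFP, beside -0.03 and -0.16 over all genes. Without the dim array 14 of the 21 genes called in LP-1-cIAP2-eGFP remained so, and all 21 kept their direction. Leaving out single arrays gave 15 to 36 called genes for this response and 0 to 22 for the difference between the lines at 24 h, the highest of each when the dim array was the only one of its condition.

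Of the receptors of osteopontin and related matrix proteins, 14 were tested. In control cells 1 rose and 3 fell, and in LP-1-cIAP2-eGFP cells 2 rose and 3 fell. ITGB5, an integrin subunit that pairs with αv, fell by 2.33 ± 0.17 (SE) in control and by 3.51 ± 0.17 in LP-1-cIAP2-eGFP. ITGA4, the α4 subunit that anchors myeloma cells to stroma, fell by 2.44 ± 0.22 and 2.56 ± 0.22, and ITGA8 fell by 2.94 ± 0.35 and 1.54 ± 0.35. ITGAV, the αv subunit, rose by 1.04 ± 0.17 in control and by 1.40 ± 0.17 in LP-1-cIAP2-eGFP. These 4 subunits moved the same way in both lines.

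Among P2Y receptors and the enzymes that handle extracellular nucleotides, 12 were tested, with 2 that rose and 1 that fell in control and 2 that rose and 3 that fell in LP-1-cIAP2-eGFP. P2RY8, a receptor of germinal centre B cells, fell by 1.49 ± 0.21 (SE) and 2.11 ± 0.21. P2RY1, an ADP receptor that like P2RY6 signals through Gq, rose by 1.21 ± 0.38 in control and 1.96 ± 0.38 in LP-1-cIAP2-eGFP. ENTPD6, a nucleoside diphosphatase, fell in LP-1-cIAP2-eGFP by 1.41 ± 0.15 and stood at -0.79 ± 0.15 in control, and ENTPD4 rose in control by 1.03 ± 0.13 and stood at 0.96 ± 0.13 in LP-1-cIAP2-eGFP, both of the second values being under 2-fold.

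Of the RGS family, Gq subunits and phospholipase C beta, 19 were tested, 1 of which rose in control and 2 of which rose and 1 fell in LP-1-cIAP2-eGFP. RGS1, a regulator abundant in B cells, rose by 4.42 ± 0.69 (SE) in LP-1-cIAP2-eGFP (adjusted p = 0.00122), where control cells stood at 2.02 ± 0.69 (adjusted p = 0.0690). The difference between these responses, 2.40 ± 0.98, did not pass (adjusted p = 0.598). RGS6 fell in LP-1-cIAP2-eGFP by 1.79 ± 0.30 and was well above background on 1 of its 2 treated arrays. RGS8 rose in control by 1.57 ± 0.49. It was above background on neither treated array of LP-1-cIAP2-eGFP, so that its plotted value there is not read as a change. RGS9 rose in LP-1-cIAP2-eGFP by 1.48 ± 0.41 and stood at -1.20 ± 0.41 in control. Without the dim array RGS9 stood at 0.94 in LP-1-cIAP2-eGFP and was not called. The difference in response of RGS9 did not pass (adjusted p = 0.254).

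In the RAB11 recycling machinery 13 genes were tested, none rose, and 2 fell in LP-1-cIAP2-eGFP, where RAB11FIP1 itself rose. These were RAB11FIP4, at -1.18 ± 0.23 (SE), and RAB11FIP2, at -1.18 ± 0.37, related effectors that were each above background on 1 of the 2 treated arrays and were no longer called without the dim array, where they stood at -0.92 and -0.43. Around RAB36, 9 genes were tested. CHML, which escorts Rab proteins to the enzyme that attaches their lipid, fell by 1.96 ± 0.21 in control and 1.97 ± 0.21 in LP-1-cIAP2-eGFP, where 1 of the 2 treated arrays was above background, and its relative CHM rose by 1.07 ± 0.19 in LP-1-cIAP2-eGFP, or stood at 0.92 without the dim array and was not called.

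Of 14 partners of CABLES1, 3 fell in control, and 2 rose and 2 fell in LP-1-cIAP2-eGFP. WEE1, the kinase that CABLES1 brings to cyclin-dependent kinases, fell by 1.57 ± 0.13 (SE) in control and 1.54 ± 0.13 in LP-1-cIAP2-eGFP. CDK2 fell by 1.08 ± 0.14 and 1.12 ± 0.14, and CCNA2, its cyclin, fell by 1.11 ± 0.13 in control and stood at -0.92 ± 0.13 in LP-1-cIAP2-eGFP. CDK3 rose by 1.19 ± 0.24 in LP-1-cIAP2-eGFP, and without the dim array it stood at 0.73 and was not called. The difference between the lines in the 24 h response was 0.03 ± 0.19 for WEE1 and -0.04 ± 0.20 for CDK2, where CABLES1 had 1.51.

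**Figure D5:**
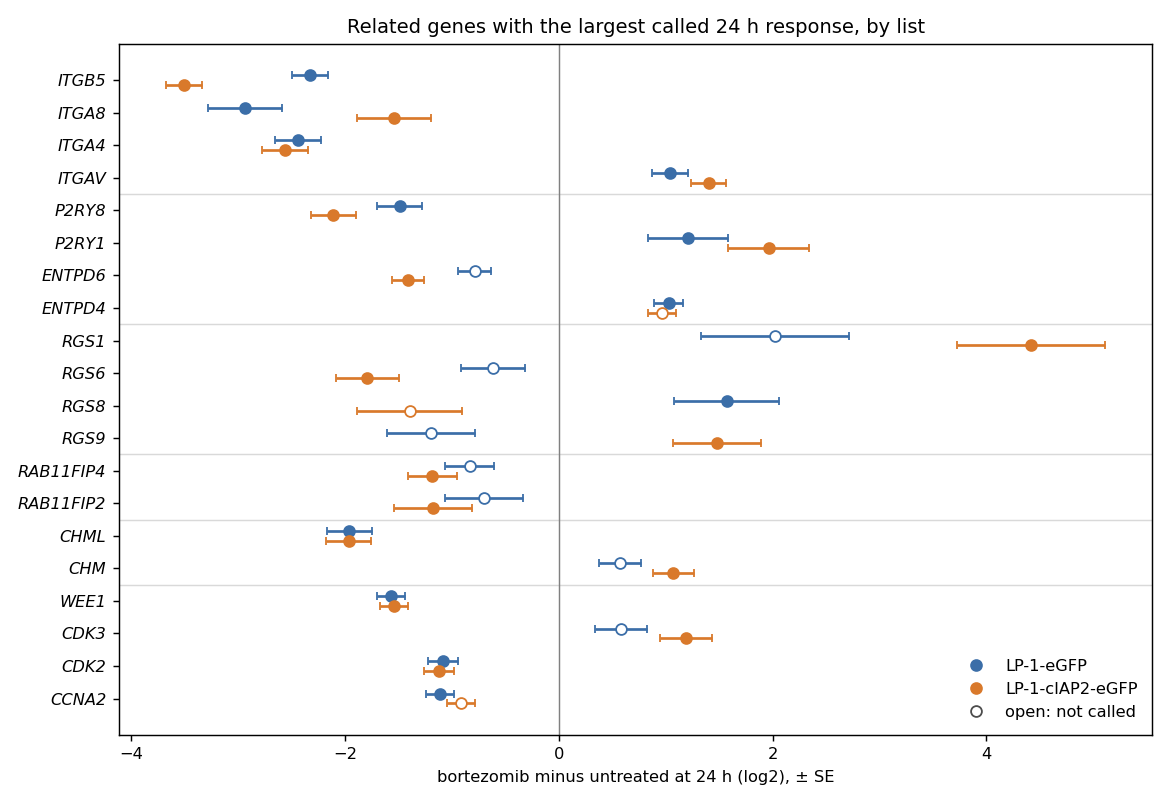
24 h response (log2, with the SE of the fit) in control and LP-1-cIAP2-eGFP cells of the genes with the largest called change in each list, ordered by list from osteopontin receptors at the top to CABLES1 partners at the bottom; filled points passed an adjusted p of 0.05 and 2-fold. ITGB5, ITGA4, P2RY8, CHML, WEE1 and CDK2 fall in both lines, and RGS1 rises most (4.42); the open RGS8 point of LP-1-cIAP2-eGFP rests on treated arrays not well above background.

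At 6 h few genes of these lists moved by more than 2-fold, and all are named here after their values were seen. In control cells 2 rose and 2 fell, where 1.69% and 1.05% of all genes did. RGS16 rose by 1.34 ± 0.16 (SE), CCNE1 fell by 1.02 ± 0.14, CDKN1A was at least 1.59-fold higher and RAB34 at least 1.77-fold lower, the last 2 being bounds because treated or untreated cells were not well above background. In LP-1-cIAP2-eGFP cells 2 rose and none fell, where 1.26% and 0.698% of all genes did. These were CDKN1A, at least 3.08-fold higher, and CDK5R1, which rose by 1.05 ± 0.16. Without any 1 of the arrays the called genes numbered 0 to 4 in control and 0 to 1 in LP-1-cIAP2-eGFP. Between the untreated lines at 6 h 8 passed, or 2 to 7 with each array left out. Among them CDKN1A was well above background in neither untreated line, so that no direction is given. Of the others 2 were higher in LP-1-cIAP2-eGFP and 5 lower, where 1.5% and 3.46% of all genes were. The higher ones were ITGA8 by 2.03 ± 0.28 and NT5E, an ectonucleotidase, by 1.29 ± 0.24. The 5 that were lower were RAB11FIP5 at -1.90 ± 0.21, GNAQ, the α subunit of Gq, at -1.77 ± 0.26, RGS20 at -1.36 ± 0.13, RGS9, at least 4.81-fold, and ENTPD1, at least 1.31-fold.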

How the data were processed

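RNA of LP-1-eGFP and LP-1-cIAP2-eGFP cells was hybridized in a single colour to 16 Agilent SurePrint G3 Human arrays, 2 biological replicates per condition. Per the file headers, the deposited intensity values came from Agilent Feature Extraction 10.7.3.1, which subtracts the background and detrends each spot, without normalization between arrays. The authors' log2 values, deposited too, were quantile normalized in GeneSpring by their methods and, from its values, centred on the median of each probe. Here outlier spots were left out, the log2 intensity values were averaged per probe, and the arrays were quantile normalized (limma 3.58.1 and R 4.3.3). A probe was tested if 1 or more conditions had both arrays well above background. Of 50599 probes, 28174 (55.7%) were named through RefSeq accessions (GRCh38.p14), and the probe with the highest mean signal stands for a gene. For a probe that no array of a group measured above background, the fold is a lower bound against the lowest signal above it.

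Contrasts at 6 h were fitted with limma on the 8 arrays of that time (32041 probes) and those at 24 h on all 16 (33731 probes), each condition with its own mean. P-values were two-sided and adjusted over all probes by the Benjamini-Hochberg method. Calls needed an adjusted p under 0.05 and, for related genes, more than 2-fold, except for differences between responses. The code was tested on simulated data. A gene that the rules below select and a marker of the lists are not reported here. The 6 genes and the related lists were chosen with earlier results of these data known. The text names the 6 genes, BIRC3, the 3 genes most correlated with each of the 6 over the 16 arrays, and in each list every gene called for the difference in the 24 h response and the 4 with the largest called 24 h change. Alternatives were scaling to the 75th percentile, normexp with an offset of 50 (on median signals), the authors' log2 values, other signal filters, replicate number or slide as a block, array weights, the other set of arrays in the fit, the second probe, and each array left out.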

Additional observations from a re-analysis of the deposited data

Results flagged for a closer look

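Genes other than the 6 were flagged for a different response of the lines (limma, adjusted p under 0.05). At 24 h the response in LP-1-cIAP2-eGFP exceeded that in control by 1.84 (log2) for PTPN22, a phosphatase of lymphocyte receptor signaling, by 2.38 for BAG4, a co-chaperone of the HSP70 family, by 1.39 for LARP6 and by 2.00 for NOG, which encodes the bone morphogenetic protein antagonist noggin. All 4 were well above background on all 16 arrays. With 24 h of drug PTPN22 went from 9.83 and 9.74 to 10.50 and 10.52 in LP-1-cIAP2-eGFP. In control it fell, from 9.43 and 9.29 to 8.35 and 8.14. LARP6 rose in both lines, while BAG4 and NOG rose in LP-1-cIAP2-eGFP and their treated and untreated control arrays overlapped. At 6 h the fitted difference for DGAT2L6 was -4.24, which is no measure of its size, since 3 of the 4 conditions at 6 h were not well above background. Its signals were 6.90 and 6.69 in untreated LP-1-cIAP2-eGFP cells at 6 h, the 2 arrays on which it was well above background. In the other conditions at 6 h they lay between 2.52 and 2.57, and the dim array read 6.16 without passing the test for background.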

How the results depend on the processing

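The counts of probes past the thresholds moved more than the values of the 6 genes, and the causes were not tested. For the 24 h response 6263 probes were called in LP-1-cIAP2-eGFP, and 2706 with array weights, 3488 with the 24 h arrays alone and 3552 among probes well above background on all arrays (hereafter detected probes). In control 4043 were called, and 2190 with the 24 h arrays alone. With each array left out the ranges were 4555 to 13345 and 3073 to 5064. For the 6 h response 604 were called in LP-1-cIAP2-eGFP, and 391 with array weights, 337 with normexp, 251 with all 16 arrays, 296 among detected probes and 78 with slide as a block (151 to 843 with each array left out). In control 748 were called, and 464 with normexp, 379 with all 16 arrays, 430 among detected probes and 130 with slide as a block (24 to 775 with each array left out). The untreated lines differed at 6 h in 1336 probes, and in 840 with normexp, 753 with all 16 arrays and 432 among detected probes (569 to 1505).

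The difference in the 24 h response passed for 24 probes, and for 0 with array weights or the 24 h arrays alone, 9 with the authors' values, the 75th percentile or slide as a block, 15 with the replicate block, 71 with normexp and 80 among detected probes. It passed for 0 without replicate 2 of untreated LP-1-cIAP2-eGFP at 24 h, for 92 without the dim array, and for 9338 without the other array of that condition, where the dim array stands alone and is assumed to vary like the other conditions. At 6 h the difference passed for 1 probe, for 2 with array weights and for 0 among detected probes, with the 75th percentile, with slide as a block or with the replicate block (0 to 7 with each array left out).

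Of the 6 genes, the 3 that passed at 6 h in LP-1-cIAP2-eGFP became 1 with array weights and 0 without a signal filter or with slide as a block (0 to 1 with each array left out), and 4 among detected probes, SPP1 being added. The 3 in control became 0 with slide as a block (0 to 3) and 5 with the replicate number as a block, where RAB36 (adjusted p = 0.0191, limma) and RGS2 (0.0306) passed too, and 4 among detected probes, again with RAB36 (0.0238). None passed for the 6 h difference in any setting. The 4 that differed between the untreated lines became 5 with the replicate block or among detected probes, with RAB36 added. They became 3 with each array left out, without a signal filter, with slide as a block or with all 16 arrays, CABLES1 being lost. Pairing by replicate number was checked with the difference between the replicate arrays of each condition, taken in the same order throughout. Over 31215 probes these differences correlated between -0.110 and 0.239 over 28 pairs of conditions and above 0.1 in 7. The correlations were low, and they do not settle whether same-numbered arrays were paired.

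Directions turned for small values. The RGS2 difference of -0.10 ranged from -0.33 to 0.12 with each array left out (0.03, 0.12, 0.02 and 0.06 where it turned), that of RAB11FIP1 from -0.02 to 0.26 (-0.019 where it turned), and SPP1 in control from -0.025 to 0.142. At 24 h the response of SPP1 in LP-1-cIAP2-eGFP ranged from -0.15 to 0.19 over the alternatives and the untreated difference of RAB11FIP1, near 0, from -0.17 to 0.17. The untreated difference of RAB11FIP1 was -0.23 by the second probe. Under normexp r was 0.70 for CABLES1 with SGCE, 0.78 for P2RY6 with GSTO1 (0.74 with the 75th percentile), and 0.81 for RAB11FIP1 with H3C3. Signal over background limits the dimmest genes of the lists.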
